A study of Rattus norvegicus with 6 samples.

Results

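The genes described here belong to the integrated stress response, the programme that cells switch on when translation initiation is curbed, and were 10 of the 30957 genes in the deposited rat muscle table. They were taken by gene symbol, and each symbol matched 1 row. By role they were the transcription factors Atf4, Atf5 and Ddit3, the feedback regulators Ppp1r15a and Trib3, the stress effectors Sesn2 and Chac1, and the amino acid synthesis enzymes Asns, Psat1 and Phgdh. In this pathway kinases that sense amino acid shortage, unfolded protein, haem shortage or double-stranded RNA phosphorylate the initiation factor eIF2. General translation then falls, while the mRNAs of Atf4, Atf5 and Ddit3 are translated better because of short upstream reading frames. Atf4 protein in turn activates genes for amino acid synthesis and uptake, so much of its control is not visible in its own mRNA. In skeletal muscle the response is known from denervation, ageing and mitochondrial disease.

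RNA came from the flexor digitorum longus, a toe flexor of the hind limb, of wild-type Sprague-Dawley rats. Libraries from the 18 h point (3) were set against those of control muscle at 0 h (3). The model was acute osteofascial compartment syndrome, here ACS, a condition where pressure in a closed muscle compartment limits blood flow. ACS was produced by tying a band of low elasticity around the skin at the knee, with a loop shorter than the limb's own circumference. Since all 6 libraries carry ACS as their treatment, controls included, the titles served to form the groups. The sources used here give no age, sex or sham operation. They do not say that each library is from its own rat either, and the p-values thus cover only the spread of these samples, which may be technical.

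Library totals lay between 14340865 and 21003928 counts. ACS replicate 1 stood apart: genes of the mitochondrial chromosome took 43.4% of its counts, against 4.82% to 8.60% in the other libraries. Summed markers of mature fibres, such as Acta1 and Ckm, overlapped between groups and were lowest in ACS replicate 1 and highest in ACS replicate 3. Neutrophil markers summed to between 1.45 and 5.95 CPM (counts scaled to library size) in control muscle and to 363, 24.9 and 80.5 CPM in ACS replicates 1, 2 and 3. The 5 tested ones all passed upward in edgeR, against 3.43% of all genes, a description only given the low control sums. DESeq2 called 5 higher (8.72% of all genes) and limma-voom 0 (2.04%). Without any 1 control library 0 passed in edgeR, as in the whole table. Macrophage markers summed to between 43.8 and 70.6 CPM in control muscle and to 1698, 144 and 108 CPM in the ACS replicates, but Lyz2 alone gave 1553, 94.2 and 78.0 CPM of this. Without Lyz2, a sum taken after the values were seen, the controls lay between 21.7 and 34.0 CPM and the ACS replicates at 144, 49.9 and 30.2 CPM, with overlap. None of the 8 macrophage markers passed in edgeR, and Adgre1 was lower in every ACS library than in the controls. At an unadjusted p under 0.05, 5 of the 8 were higher and 1 lower, against 15.5% and 7.98% of all genes. DESeq2 called 3 of the 8 higher (8.72%). Fibroblast markers, of which 0 of 5 passed, summed to between 689.8 and 1076 CPM in the controls and between 2318 and 2960 CPM in ACS muscle. Of these 5, 4 were higher and 0 lower at an unadjusted p under 0.05 in edgeR, and DESeq2 called 2 higher (8.72% of all genes). Endothelial markers, of which 0 of 4 tested passed, summed to between 201 and 313 CPM in the controls. They overlapped with ACS replicates 1, 2 and 3, at 484, 297 and 163 CPM. Satellite cell markers summed to between 67.5 and 82.6 CPM in the controls and between 30.04 and 49.7 CPM in ACS muscle, where Myod1 fell and Myf5 rose. All CPM values here are scaled by TMM, a normalization that trims extreme genes. In whole muscle, more cells of a type and more RNA per cell cannot be told apart.

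Of the 10 genes, Ppp1r15a and Sesn2 rose in ACS muscle, and none fell, at an adjusted p under 0.05 in edgeR's quasi-likelihood test, for which 9 genes had enough counts. Across all 12873 genes tested, 3.43% passed upward and 0.707% downward, 4.14% in all. Every ACS library lay above every control library in 6 of the 10 genes (Atf4, Ppp1r15a, Trib3, Sesn2, Asns and Psat1), an arrangement seen in 16.7% of all tested genes. The groups overlapped in Atf5, Ddit3, Chac1 and Phgdh. The median log2 fold change of the 9 tested genes was 2.06, against -0.01 over all tested genes. Trib3, Asns and Psat1 reached the count filter in all 3 ACS libraries but not in all 3 controls, so that median and the counts that include these genes are descriptions only. At an unadjusted p under 0.05, 5 of the 9 were higher, these 3 among them, and 0 lower; over all genes the shares were 15.5% and 7.98%. DESeq2 and limma-voom each called 0 of them lower, against 2.8% and 0.552% of all genes. Of the 10, 2 rose and 0 fell without ACS replicate 1 (4.99% and 1.69% of all genes), 0 rose or fell without ACS replicate 2 (2.14% and 0.129%), and 5 rose and 0 fell without ACS replicate 3 (9.72% and 3.01%), the same 3 genes included. Without any 1 control library no gene of the whole table passed in edgeR. At an unadjusted p under 0.05, 5 of the 10 were higher in each of these fits, and 10.5%, 10.5% and 11.5% of all genes without control replicates 1, 2 and 3.

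**Figure D1:**
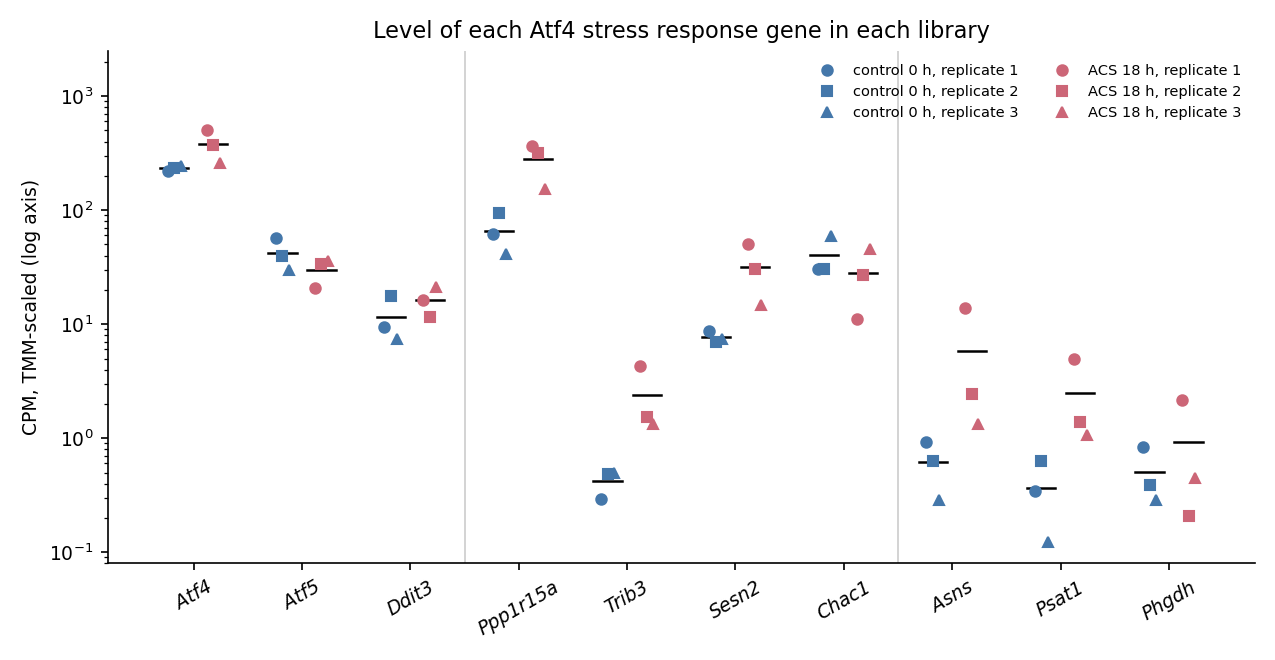
Level of each of the 10 genes in each library, as TMM-scaled CPM on a log axis, with control 0 h libraries in blue and ACS 18 h libraries in red. Symbols mark the replicate and black lines the group mean (3 libraries each). Vertical lines part the factors, the regulators and effectors, and the synthesis enzymes. The 3 ACS libraries lie above the 3 controls for Atf4, Ppp1r15a, Trib3, Sesn2, Asns and Psat1.

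Atf4 (ENSRNOG00000017801, chromosome 7, positions 121480723 to 121482781 of Rnor 6.0) encodes the bZIP activator at the centre of the response, and its mRNA was plentiful in resting muscle. It stood at 222, 233 and 245 CPM in the control libraries and at 507, 369.9 and 258 CPM in ACS replicates 1, 2 and 3. All ACS libraries were thus above all controls, but ACS replicate 3 only narrowly. The means were 233 ± 11.6 and 378 ± 125 CPM (SD, n = 3 each). In edgeR the log2 fold change was 0.70 (SE 0.31, 95% interval -0.0155 to 1.41, adjusted p = 0.221), so Atf4 did not pass the threshold. Its value without ACS replicate 1 was 0.43.

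Atf5 (ENSRNOG00000020060), a related bZIP factor linked to mitochondrial stress, had a fitted change opposite in sign to that of Atf4, but neither passed the threshold. It measured 56.7, 39.5 and 29.6 CPM in control muscle and 20.96, 33.9 and 35.7 CPM in ACS muscle. The groups overlapped, with the lowest value in ACS replicate 1. The log2 fold change was -0.47 (SE 0.33, 95% interval -1.22 to 0.27, adjusted p = 0.414 in edgeR).

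Ddit3 (ENSRNOG00000006789) encodes CHOP, a bZIP factor that promotes cell death under prolonged endoplasmic reticulum stress. Its levels were 9.36, 17.6 and 7.43 CPM in control muscle and 16.4, 11.6 and 21.2 CPM in ACS muscle. Control replicate 2 exceeded ACS replicates 1 and 2, so the groups overlapped. The log2 fold change was 0.52 (SE 0.39, 95% interval -0.37 to 1.41, adjusted p = 0.452 in edgeR). The end of Ddit3 overlaps that of Mars, a gene for an aminoacyl-tRNA synthetase on the opposite strand, and the sources used here give no strand setting for the counting. Reads of the shared stretch may therefore not be told apart.

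Ppp1r15a (ENSRNOG00000020938, chromosome 1, positions 101511901 to 101514974 of Rnor 6.0) encodes GADD34, which brings protein phosphatase 1 to eIF2 and so restores translation. It went from 61.3, 93.6 and 41.3 CPM in control muscle to 367, 318 and 154 CPM in ACS replicates 1, 2 and 3. The lowest ACS library was above the highest control. The means were 65.4 ± 26.4 and 279.6 ± 111 CPM (SD, n = 3 each), 4.27-fold apart, and the log2 fold change was 2.10 (SE 0.43, adjusted p = 0.0387 in edgeR). Without ACS replicate 1, the library with the high mitochondrial share, it was 1.85 (adjusted p = 0.0320). It did not pass without ACS replicate 2 (adjusted p = 0.0779) or without control replicates 1, 2 and 3 (adjusted p = 0.193, 0.135 and 0.155).

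The promoter window of Ppp1r15a in the RefSeq table (build GRCr8), 300 bases that run across the annotated start, holds a cyclic AMP response element, TGACGTCA, a palindrome that reads the same on both strands and that bZIP factors of the ATF family are known to bind. This motif was looked for after the sequences had been read. It occurs in 1.83% of 33469 promoter windows of that length. Of the 10 genes described here only 1 window holds it, so that of Sesn2, which also rose, does not. The stretch is shown because Ppp1r15a is one of the genes that rose, with the motif in capitals; it begins 66 bases before the start, on the minus strand of chr1:105139625-105139692.
Ppp1r15a: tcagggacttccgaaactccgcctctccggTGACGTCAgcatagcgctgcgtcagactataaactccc
No binding was measured in these samples.

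Trib3 (ENSRNOG00000007319), a pseudokinase that restrains Atf4 and Akt, was scarce. It had 6, 10 and 12 counts in the control libraries and 46, 30 and 24 in ACS replicates 1, 2 and 3. Scaled, these were 0.293, 0.484 and 0.496 CPM against 4.30, 1.54 and 1.34 CPM, with no overlap. EdgeR gave a log2 fold change of 2.45 (SE 0.60, adjusted p = 0.0574), just short of the threshold. It was 1.75 without ACS replicate 1 and passed without ACS replicate 3 (2.73, adjusted p = 0.0307).

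Sesn2 (ENSRNOG00000042785, chromosome 5, positions 150684133 to 150704117 of Rnor 6.0) encodes sestrin 2, a leucine sensor that holds back the growth kinase complex mTORC1. Its controls lay close together at 8.63, 6.96 and 7.39 CPM, and ACS replicates 1, 2 and 3 stood at 50.6, 30.7 and 14.7 CPM. Every ACS library was well above the controls, though the ACS libraries differed more among themselves than the controls did. The means were 7.66 ± 0.865 and 32.0 ± 18.0 CPM (SD, n = 3 each), 4.18-fold apart. The log2 fold change was 2.06 (SE 0.43, adjusted p = 0.0406 in edgeR), and 1.56 without ACS replicate 1 (adjusted p = 0.0287). It did not pass without ACS replicate 2 (adjusted p = 0.0747) or without control replicates 1, 2 and 3 (adjusted p = 0.183, 0.185 and 0.156).

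Chac1 (ENSRNOG00000014387), which degrades glutathione and is a much-used marker of Atf4 activity, was not separated between the groups. It measured 30.4, 30.6 and 59.1 CPM in control muscle and 11.1, 27.1 and 46.0 CPM in ACS replicates 1, 2 and 3. The groups overlapped, and ACS replicate 1 was the lowest library. The log2 fold change was -0.51 (SE 0.49, 95% interval -1.64 to 0.62, adjusted p = 0.564 in edgeR). That interval lies below the fitted values of Ppp1r15a, Trib3 and Sesn2. Without ACS replicate 1 the value was -0.13, near 0.

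Chac1 and Trib3 were the 2 of the 10 genes whose promoter windows held the core of the C/EBP-ATF response element, TGATGNAA on either strand, to which Atf4 and C/EBP proteins are known to bind together. The core occurs in 3.98% of the 33469 windows. The endoplasmic reticulum stress element, CCAAT and CCACG spaced 9 bases apart on either strand, was in none of the 10 windows and in 0.0657% of all. The stretches are shown because the motif is shared by a gene whose ACS libraries all exceeded the controls and a gene whose groups overlapped. Capitals mark the core, read on the opposite strand, which begins 167 bases before the start of Chac1 (plus strand of chr3:126795934-126796001, GRCr8) and 21 bases before that of Trib3 (minus strand of chr3:161275534-161275584).
Chac1: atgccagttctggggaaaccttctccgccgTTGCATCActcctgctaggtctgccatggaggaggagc
Trib3: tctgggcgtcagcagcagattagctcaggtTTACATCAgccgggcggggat
The letters describe these windows only, and no binding was measured.

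The synthesis enzymes were scarce in resting muscle, and their ACS libraries were unequal. Asns (ENSRNOG00000007546), which makes asparagine, had 19, 13 and 7 counts in the control libraries and 148, 47 and 24 in ACS replicates 1, 2 and 3. These were 0.926, 0.629 and 0.289 CPM against 13.8, 2.42 and 1.34 CPM. The groups did not overlap, but ACS replicate 1 held most of the signal. In edgeR, Asns had a log2 fold change of 3.23 (SE 0.91, adjusted p = 0.0782). It was 1.61 without ACS replicate 1 (adjusted p = 0.134) and 3.70 without ACS replicate 3 (adjusted p = 0.0286).

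Psat1 (ENSRNOG00000013971), the aminotransferase of serine synthesis, had 7, 13 and 3 counts in the control libraries and 53, 27 and 19 in ACS replicates 1, 2 and 3. The scaled levels were 0.341, 0.629 and 0.124 CPM against 4.96, 1.39 and 1.06 CPM, again without overlap. The log2 fold change was 2.72 (SE 0.79, adjusted p = 0.0845 in edgeR), or 1.75 without ACS replicate 1. Phgdh (ENSRNOG00000019328), which starts the same pathway, did not reach the count filter. It had 17, 8 and 7 counts in the control libraries and 23, 4 and 8 in the ACS libraries. Its groups overlapped, with both the highest and the lowest of all 6 scaled levels in ACS muscle, 2.15 and 0.206 CPM. Fitted with no filter, its log2 fold change was 0.75 (adjusted p = 0.633 in edgeR).

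**Figure D2:**
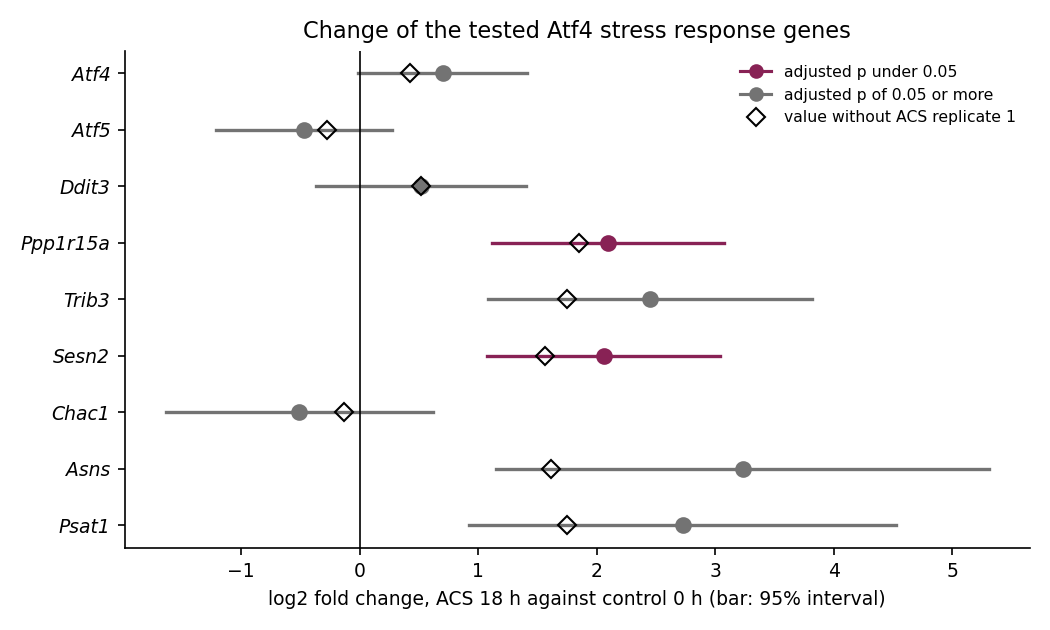
Log2 fold change of ACS 18 h against control 0 h for the 9 tested genes, from edgeR, with 95% intervals. Filled purple points passed an adjusted p of 0.05, grey points did not, and open diamonds give the value without ACS replicate 1. Ppp1r15a and Sesn2 passed, while the wider intervals of Trib3, Asns and Psat1 belong to genes with few counts.

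By role, the 3 factors gave 0 genes past the threshold in edgeR (0 at an unadjusted p under 0.05, in either direction) and log2 fold changes from -0.47 to 0.70. Among the synthesis enzymes, Asns and Psat1 had larger log2 fold changes, 3.23 and 2.72, but also 0 past the threshold, with both at an unadjusted p under 0.05. DESeq2 passed Asns and Psat1 and none of the factors, as part of 5 genes of the 10 that it called higher, against 8.72% of all genes upward in that test. Limma-voom passed Ppp1r15a alone, against 2.04%. The contrast of factors with enzymes was also set out as ratios per length within each library, which library scaling does not touch. Asns, Psat1 and Trib3 reached the count filter in all 3 ACS libraries but not in all 3 controls, and Phgdh was not tested in edgeR. The calls, fold changes and ratios that involve these genes are therefore descriptions only.

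Within each library, the ratio of Asns to Atf4 was -8.78, -9.40 and -10.60 in the controls and -6.07, -8.13 and -8.46 in ACS replicates 1, 2 and 3, on the log2 scale. Psat1 stood at -10.52, -9.71 and -12.13 relative to Atf4 in the controls and at -7.86, -9.24 and -9.11 in ACS muscle. Both enzymes thus stood higher relative to Atf4 mRNA in ACS muscle, with no overlap and by 2.04 and 2.05 on average. For Phgdh the groups overlapped, with a mean ratio of -9.36 ± 0.85 in control and -9.64 ± 1.47 in ACS muscle (SD, n = 3 each). Trib3, Ppp1r15a and Sesn2 stood 1.68, 1.43 and 1.25 higher relative to Atf4 in ACS muscle, each without overlap, while Atf5, Ddit3 and Chac1 overlapped.

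Relative to Atf5, Asns and Psat1 stood 3.15 and 3.16 higher in ACS muscle without overlap. Relative to Ddit3, Psat1 stood 2.13 higher without overlap and Asns 2.11 with overlap. Of the 15 ratios compared, 8 had no overlap, each with p = 0.1 in a two-sided exact permutation test, the smallest that 3 libraries against 3 allow (adjusted p = 0.188 over the 15). The ratios share genes, and no share over all genes was taken. Apart from Ppp1r15a and Sesn2 relative to Atf4, those 8 involve Trib3, Asns or Psat1, so their number is a description only.

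**Figure D3:**
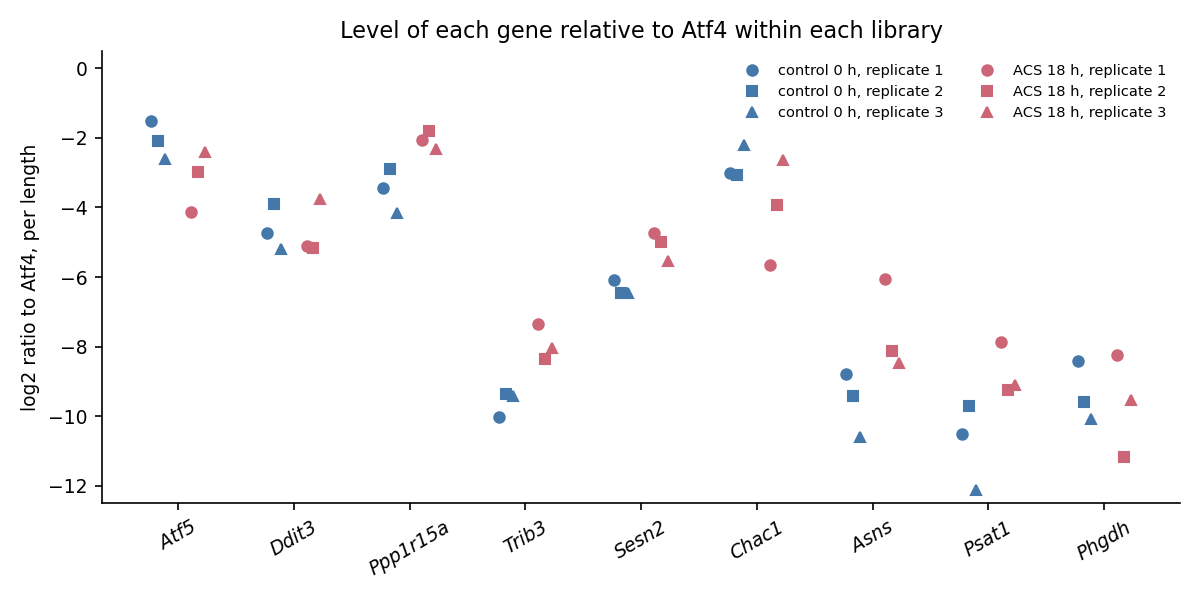
Ratio of each of the other 9 genes to Atf4 within each library, per gene length, on the log2 scale. Control 0 h libraries are blue, ACS 18 h libraries red, and symbols mark the replicate. Ppp1r15a, Trib3, Sesn2, Asns and Psat1 lie higher relative to Atf4 in all 3 ACS libraries than in all 3 controls, and the other 4 overlap.

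Per kilobase of gene length, Atf4 was the most abundant of the 10 in both groups, at 165 ± 8.23 CPM per kilobase in control and 268 ± 88.6 in ACS muscle (SD, n = 3 each). In control muscle it was followed by Atf5 at 40.7 ± 13.3, Chac1 at 25.5 ± 10.5, Ppp1r15a at 15.5 ± 6.25 and Ddit3 at 7.25 ± 3.40 CPM per kilobase. Sesn2 came next at 2.05 ± 0.231, and Phgdh, Asns, Trib3 and Psat1 lay between 0.114 and 0.278. Neighbours in this order overlapped except at the steps from Atf4 to Atf5, from Ddit3 to Sesn2 and from Sesn2 to Phgdh. In ACS muscle Ppp1r15a stood in the second place, at 66.2 ± 26.4 CPM per kilobase, without overlap with Atf4 above it or Atf5 below it. Phgdh had the lowest level there, at 0.518 ± 0.589, and overlapped with Psat1 above it.

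The ACS libraries fell into the same order in all 6 genes whose groups did not overlap. In Atf4, Ppp1r15a, Trib3, Sesn2, Asns and Psat1, ACS replicate 1 was highest, replicate 2 next and replicate 3 lowest. This arrangement together with full separation held in 6.92% of all tested genes, which is 891 of the 2150 with full separation. Trib3, Asns and Psat1 reached the count filter in all ACS libraries but not in all controls, so the count of 6 is a description only. Atf5 and Chac1 had the reverse order, lowest in ACS replicate 1 and highest in replicate 3, as did 23.1% of tested genes. The summed macrophage markers had the first order, at 1698, 144 and 108 CPM in ACS replicates 1, 2 and 3, with all 8 markers matched and none at 0 in a group, and also without Lyz2, at 144, 49.9 and 30.2 CPM. Of the single markers, Adgre1 and C1qa did not have it. Summed endothelial markers had the first order too, at 484, 297 and 163 CPM, with 4 of 5 matched and overlap with the controls. The summed markers of mature fibres had the second, at 80166, 111944 and 197322 CPM, with 6 of 9 markers matched. Summed fibroblast markers shared it, at 2318, 2396 and 2960 CPM, with 5 of 5 matched. Neutrophil markers followed neither, at 363, 24.9 and 80.5 CPM, with 7 of 7 matched and Elane at 0 counts in all controls. Nor did satellite cell markers, at 30.04, 49.7 and 45.4 CPM, with 5 of 5 matched. The part of these cell type markers in the levels of the 10 genes was not tested.

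The genes of the whole table whose profile over the 6 libraries lay nearest to that of Atf4 were Srrm1, Lin54 and Cdyl. Nearness was the root mean square difference of mean-centred log2 CPM, among 6995 genes with a mean of at least 10 CPM. Srrm1, a splicing coactivator, differed by 0.0680, Lin54, a subunit of a cell cycle regulating complex, by 0.0717 and Cdyl, a chromatin corepressor, by 0.0723. For Srrm1 the controls were at 56.3 ± 7.09 CPM and the ACS libraries at 93.8 ± 29.7 CPM (SD, n = 3 each). Among the rest of the 10 genes described here, Ddit3 was nearest to Atf4 of those at 10 CPM or more, at rank 3480. The genes of the other pathway lists were not part of that comparison.

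Upstream of Atf4, none of 14 tested genes for eIF2 kinases, the other eIF2 phosphatase subunits, the exchange factor eIF2B and the mitochondrial relay passed the edgeR threshold. At an unadjusted p under 0.05, 2 were higher and 0 lower (15.5% and 7.98% of all genes), and DESeq2 and limma-voom called 0. Without ACS replicate 3, where 9.72% of all genes passed upward, 2 rose: Ppp1r15b, the constitutive eIF2 phosphatase subunit, and Eif2b3, a subunit of eIF2B (adjusted p = 0.0433 and 0.0364 in edgeR), both named after their values were seen. Without any other 1 library the number was 0. The median log2 fold change was 0.0485. Dele1, which carries mitochondrial stress to the eIF2 kinase of haem shortage, had the highest mean over the 6 libraries, with control libraries at 102 ± 2.91 CPM and ACS libraries at 69.7 ± 14.4 CPM (SD, n = 3 each; matched by an older symbol; adjusted p = 0.226 in edgeR).

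Downstream, the amino acid transporters that Atf4 is known to activate gave 2 of 8 tested genes past the edgeR threshold, both upward. Over all genes 3.43% passed upward. The median log2 fold change of the list was 2.52. At an unadjusted p under 0.05, 6 were higher and 0 lower (15.5% and 7.98% of all genes). DESeq2 called 4 of them higher (8.72%) and limma-voom 2 (2.04%). Slc7a5, the carrier subunit for leucine and other large neutral amino acids, went from between 0.702 and 1.35 CPM in the controls to 113, 30.8 and 33.5 CPM in ACS replicates 1, 2 and 3. Its log2 fold change was 5.87 (SE 0.64, adjusted p = 0.00994 in edgeR) and 4.99 without ACS replicate 1. Slc7a1, the carrier of cationic amino acids, had means of 1.96 ± 0.830 and 26.5 ± 21.7 CPM (SD, n = 3 each); its log2 fold change was 3.75 (adjusted p = 0.0246 in edgeR), or 2.82 without ACS replicate 1. Without ACS replicates 1, 2 and 3 the number of transporters that rose was 4, 2 and 6 (4.99%, 2.14% and 9.72% of all genes), and without any 1 control library it was 0. Slc7a11, the cystine carrier subunit, reached the count filter only in the ACS libraries. The median of this list and the counts that include Slc7a11, 4 and 6 among them, are therefore descriptions only.

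In serine and folate metabolism 2 of 12 tested genes rose and none fell in edgeR, against 3.43% and 0.707% of all genes. The median log2 fold change was -0.22. At an unadjusted p under 0.05, 4 were higher and 1 lower (15.5% and 7.98% of all genes). These include Aldh1l2 and Cth, which did not reach the count filter in both groups, so they are descriptions only. DESeq2 called 3 higher (8.72% of all genes) and limma-voom 0 (2.04%). The pair that rose in edgeR were mitochondrial folate enzymes. Mthfd2 went from 0.683, 0.677 and 0.578 CPM to 11.7, 3.45 and 2.29 CPM (log2 fold change 3.14, adjusted p = 0.0402 in edgeR; 2.14 without ACS replicate 1). Mthfd1l went from 0.981 ± 0.430 to 5.89 ± 3.33 CPM (SD, n = 3 each; log2 fold change 2.56, adjusted p = 0.0435 in edgeR). Neither passed without ACS replicate 2 (adjusted p = 0.0534 and 0.0558) or without any 1 control library. In Psph, which ends the serine pathway and was named after its values were seen, the levels were 3.79 ± 1.63 and 1.82 ± 0.694 CPM (adjusted p = 0.215 in edgeR).

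The IRE1 and ATF6 branches of the unfolded protein response run beside the Atf4 branch. Of their 16 tested genes, 3 rose and none fell in edgeR, against 3.43% and 0.707% of all genes. At an unadjusted p under 0.05, 8 were higher and 0 lower (15.5% and 7.98% of all genes), and the median log2 fold change was 0.86. DESeq2 called 5 of them higher (8.72%) and limma-voom 2 (2.04%). Hspa5, the chaperone BiP of the endoplasmic reticulum, stood at 125, 121 and 131 CPM in control muscle and at 1279, 441 and 307 CPM in ACS replicates 1, 2 and 3. Its log2 fold change was 2.43 (SE 0.53, adjusted p = 0.0442 in edgeR), or 1.57 without ACS replicate 1 (adjusted p = 0.00958). Dnajb9, a cochaperone of BiP, and Edem1, which sends misfolded glycoproteins to degradation, had log2 fold changes of 1.72 and 1.41 (adjusted p = 0.0444 and 0.0435 in edgeR). Without ACS replicates 1, 2 and 3 the number that rose was 4, 0 and 6 (4.99%, 2.14% and 9.72% of all genes), and without any 1 control library it was 0.

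Of 13 tested further factors and targets of the response, 1 rose, against 3.43% of all genes: Cdkn1a, an inhibitor of the cell cycle that p53 also controls. It went from 22.6 ± 17.3 to 182 ± 115 CPM (SD, n = 3 each; log2 fold change 3.01, adjusted p = 0.0470 in edgeR), and did not pass without ACS replicate 2 (adjusted p = 0.0999) or without control replicates 1, 2 and 3 (adjusted p = 0.202, 0.191 and 0.0791). At an unadjusted p under 0.05 in edgeR, 4 of this list were higher and 1 lower (15.5% and 7.98% of all genes). DESeq2 called 3 higher (8.72%) and limma-voom 1 (2.04%). The number that rose was 3, 0 and 3 without ACS replicates 1, 2 and 3 (4.99%, 2.14% and 9.72% of all genes). Without ACS replicate 3, 1 fell (3.01%). None of 5 tested mitochondrial chaperones and proteases passed (1 lower at an unadjusted p under 0.05, against 7.98% of all genes, and 0 by DESeq2 and limma-voom upward). Hspa9, a mitochondrial chaperone of the Hsp70 family and the gene with the highest mean of them, measured 237 ± 20.4 and 277 ± 8.78 CPM (SD, n = 3 each; adjusted p = 0.613 in edgeR).

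**Figure D4:**
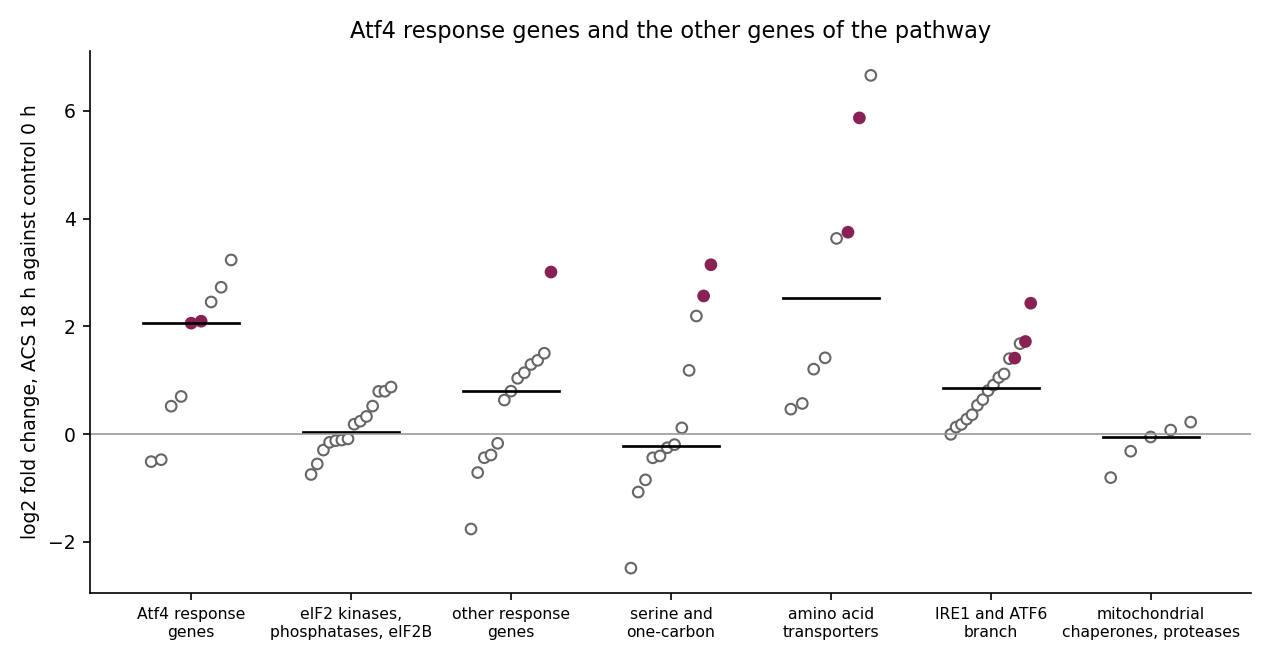
Log2 fold change of ACS 18 h against control 0 h for the tested genes of the Atf4 response and of 6 further lists, 1 point per gene, with the list median as a black line. Filled purple points passed an adjusted p of 0.05 in edgeR. The amino acid transporters have the highest median, 2.52, a description only since it includes Slc7a11, and the eIF2 kinase and mitochondrial lists have medians near 0.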

How the data were processed

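Per the labels' protocols, ribosomal RNA was removed from total RNA before library preparation. The authors deposited 1 table with gene counts, in whole numbers, beside FPKM. The submitters' processing notes name HISAT2 2.0.4, StringTie 1.3.0 and Rnor 6.0, and the sources used here give no counting tool or strand setting. The deposited FPKM equalled count over length and library total within 0.1% in all 12363 genes checked (at least 20 counts in at least 2 libraries), which gave the gene lengths. Counts were filtered with filterByExpr (minimum count 10, total 15), scaled by TMM and tested with edgeR 4.0.16 in R 4.3.3, Benjamini-Hochberg adjusted over 12873 genes at 0.05. SEs came from the F statistic. DESeq2 1.42.0 and limma 3.58.1 served as alternatives, with other scalings, filters, a replicate term, a covariate for the "ji" libraries (replicate 3 of each group, so marked in the descriptions), and each library left out. The method was tested on simulated data. The 10 genes, the lists of other genes (112 entries, 107 matched) and the tests were chosen with earlier results of these data known. The genes named were the 10, the 3 nearest to Atf4, and in each list up to 3 with the smallest adjusted p past the threshold, or else the most abundant. Libraries of a group differed by more than sampling noise in every pair.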

Additional observations from a re-analysis of the deposited data

How the results depend on the processing

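Each of the 10 genes kept the sign of its log2 fold change in all alternatives that gave it a value. The number of the 10 that were higher, 2 in the main test, was 5 in DESeq2 and 4 with no filter. It was 1 with library totals, in limma-voom, in limma on log2(FPKM + 1), with a covariate for the "ji" libraries and without those libraries, and 0 in limma on log2(FPKM + 0.1). Leaving out 1 library gave 0 to 5. The number lower was 0 throughout. Over all genes, 442 were higher and 91 lower. DESeq2 gave 1315 and 422, no filter 755 and 153, and limma on log2(FPKM + 1) gave 249 and 268. Limma-voom gave 262 higher and limma on log2(FPKM + 0.1) 199. The "ji" covariate gave 248 and 32, and leaving those libraries out 171 and 30. In both of these fits the serine and folate list and the IRE1 and ATF6 list had 0 genes higher, and the amino acid transporters 2 and 1. Library totals gave 342 and 225, with 60.3% of calls upward against 82.9% and a median log2 fold change of -0.32. Leaving out 1 library gave 0 to 1286 higher and 0 to 398 lower. Ppp1r15a passed in 11 of 18 alternatives (adjusted p from 0.000106 to 0.193) and Sesn2 in 10 of 18 (0.000352 to 0.185). Trib3, Asns and Psat1 passed in 3, 4 and 2 of 15. The cause of these shifts was not tested. The replicate block gave 3 of the 10 higher, with Asns added (adjusted p = 0.0313), and 442 higher and 63 lower genes. Deviations of same-numbered libraries had correlations of -0.0659, 0.00137 and 0.0329, and those of other pairs lay between -0.0711 and 0.0774. With 3 libraries per group these values cannot settle whether the numbers pair the samples. Depth limits Trib3, Asns, Psat1 and Phgdh, with 3 to 19 counts in each control library.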

Other observations

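Values of some other stress genes were looked up after the results were seen. Atf3, a stress-induced bZIP repressor, stood at 3.17, 120.05 and 5.78 CPM in control replicates 1, 2 and 3 and at 20.6, 10.4 and 7.26 CPM in ACS replicates 1, 2 and 3. A single control library thus held the highest value, and the log2 fold change went from -1.76 with all libraries to 1.44 without control replicate 2 (adjusted p = 0.399 and 0.277 in edgeR). Control replicate 2 was also the highest control for Ddit3 and Ppp1r15a. Ddit4, an inhibitor of mTORC1, had 83.2 and 72.6 CPM in ACS replicates 2 and 3 but 7.30 CPM in ACS replicate 1, below all controls (11.3 to 43.4 CPM). Cebpb, a partner of Atf4 on DNA, was likewise lowest in ACS replicate 1, at 36.3 CPM, against 239.8 and 159.7 CPM in the other ACS libraries and 62.5 to 94.3 CPM in the controls. Without ACS replicate 1 it was higher (log2 fold change 1.26, adjusted p = 0.0358 in edgeR), against 0.80 and adjusted p = 0.429 with all libraries. Slc7a11, the cystine carrier subunit, had 6 counts in the control group and 334 in the ACS group, with 27.2, 1.13 and 1.17 CPM in ACS replicates 1, 2 and 3 (adjusted p = 0.0553 in edgeR, and 0.0423 without ACS replicate 1). It reached the count filter only in the ACS libraries, so these values are descriptions only.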
